A study of Danio rerio with 4 samples.

Results

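Nodal signals pattern the early zebrafish embryo, and the values below describe how much messenger RNA of the pathway's genes was recovered in anti-FLAG precipitates aimed at the RNA helicase Ddx3xb. The genes were chosen by name as Nodal ligands (ndr1, ndr2, gdf3), inhibitors (lft1, lft2) and transducers (foxh1, smad2, smad4a), and their symbols were matched without regard to case. Of these 8 genes, 6 had a value under their own symbol, among 27205 Ensembl gene IDs in all. The older group came from embryos collected at 4 hours post-fertilization (hpf) and the younger group from embryos collected at 2 hpf. All embryos were of wild-type genotype, so they kept their own Ddx3xb, and the protocol, worded alike for all samples, has them injected with mRNA encoding FLAG-tagged Ddx3xb. The labels count 2 biological replicates per age and also call each sample a control, without saying of what; were these precipitates made without the tagged protein, every level below would be background of the beads. RNA was recovered with anti-FLAG magnetic beads and sequenced (RIP-seq).

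The values are RPKM (reads scaled to gene length and to a read total that is not specified), deposited as 1 mean per gene and age. No value here therefore has a replicate spread, an SD or an n behind it, no difference between the ages could be tested, and the depth of the libraries is unknown. Neither an input nor a mock precipitate was analysed here, so a level is the abundance of an RNA in the precipitate and not its enrichment over the embryo. In such pooled material, fewer cells that express a gene, less RNA per cell and less RNA bound to the bait cannot be told apart.

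Nodal ligands belong to the TGF-beta family. In the zebrafish blastula, ndr1 (Squint) and ndr2 (Cyclops) are made at the margin and act as dimers with the maternally supplied Gdf3 (Vg1). The dimers bind activin receptors together with the co-receptor Tdgf1 (One-eyed pinhead), the receptors phosphorylate Smad2, and Smad2 enters the nucleus with Smad4 to act with DNA-binding partners such as Foxh1. Mesoderm and endoderm genes are induced in this way, and so are the ligands themselves and their diffusible antagonists Lft1 and Lft2 (Lefty1 and Lefty2).

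The age labels were set against genes of known timing before the pathway was read. Of 7 maternal germ plasm genes, 6 had a higher RPKM in the 4 hpf table than in the 2 hpf table, not far from the 73.0% of all genes compared that did so. On the log2(RPKM + 1) scale, 5 of the 7 were at least 2-fold higher at 4 hpf, against 33.0% of all genes compared. That share was 51.2% among genes that reached 5 RPKM in at least one table, as all 7 did. Measured from the median difference of all genes compared, 2 of the 7 lay 2-fold or more above, against 7.85% of genes of all levels. The summed level of the 7 genes was 404 and 95.3 RPKM in these tables, of which buc alone gave 295 and 53.4 RPKM. All 6 measured genes of the zygotic margin and organizer were lower in the 4 hpf table, against 27.0% of all genes compared. Their summed level was 14.1 RPKM there and 194 RPKM in the 2 hpf table. Of these sums, noto gave 9.21 and 125 RPKM, and tbx16 gave 1.25 and 44.2 RPKM. Zygotic genes are known to be switched on as the embryo ages, so the levels of these zygotic genes run against the order of the labels. Every direction below rests on the labels as given, and whether the tables are exchanged was not tested. The 5 measured genes of differentiated tissues, which embryos of these ages should lack, reached at most 0.0741 RPKM in the 4 hpf table and 0.377 RPKM in the 2 hpf table. The tables also differ as a whole. A gene was compared where one or the other table gave it 1 RPKM or more, which held for 13341 genes. The median difference of log2(RPKM + 1), 4 hpf minus 2 hpf, was 0.66 over these genes, and under other scalings of the tables it lay between -0.08 (equal median ratio) and 0.99 (equal sum). Differences of the Nodal pathway genes are therefore given both as measured and relative to this all-gene median. Values of single genes in the wider lists are mostly given as measured.

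Among the 6 measured pathway genes, smad2, foxh1 and the maternal ligand gene gdf3 had the highest levels in both tables, while the ligand gene ndr1 and both Lefty inhibitors were at 3.03 RPKM or less and had lower levels at 4 hpf. Ordered by level, smad2, gdf3, foxh1, ndr1, lft2 and lft1 followed each other in the 4 hpf table, and smad2, foxh1, gdf3, lft1, ndr1 and lft2 in the 2 hpf table. Without replicate values it cannot be said which neighbours in these orders differ beyond their spread. On the log2(RPKM + 1) scale, 1 of the 6 was at least 2-fold higher at 4 hpf (smad2), against 33.0% of all genes, and 1 was at least 2-fold lower (lft1), against 10.9% of all genes. Any negative difference was found in 3 of the 6, against 27.0% of all genes. Relative to the all-gene median, 3 lay 2-fold or more below (lft1, lft2 and ndr1), against 21.2% of all genes, and none lay as far above, against 7.85%. The median difference of the 6 genes was -0.31, beside 0.66 for all genes.

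**Figure D1:**
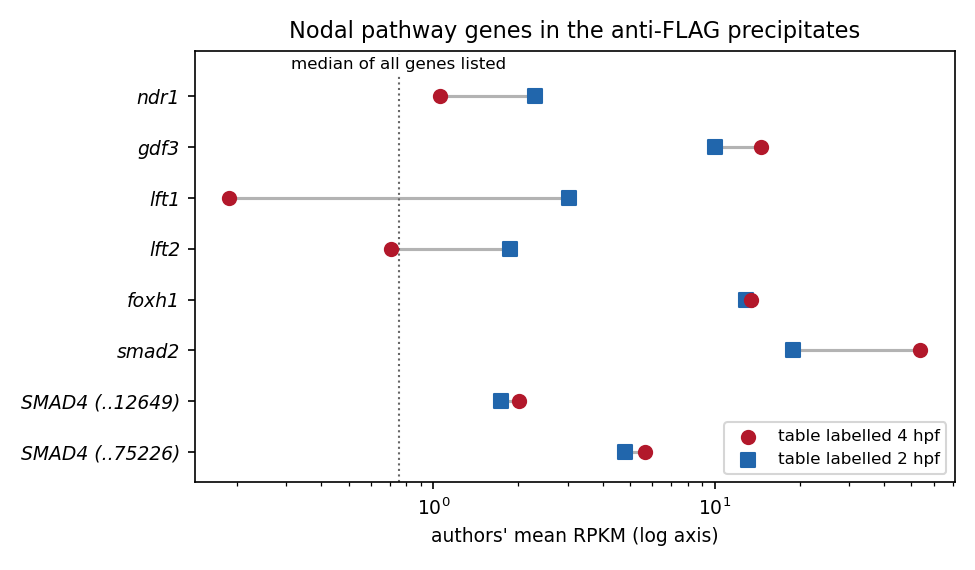
Authors' mean RPKM (log axis) of each Nodal pathway gene in the table labelled 4 hpf (red circles) and the table labelled 2 hpf (blue squares), with both IDs named SMAD4 below the members; the dotted line is the median RPKM of all genes listed in the 4 hpf table, 0.754. The widest gap is that of lft1, at 0.188 RPKM in the 4 hpf table and 3.03 RPKM in the 2 hpf table, and the values of foxh1 nearly coincide.

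The ligands differed from each other. The gene ndr1 (ENSDARG00000057096), whose product is the Nodal ligand Squint, had 1.06 RPKM in the 4 hpf table and 2.30 RPKM in the 2 hpf table. It stood above 54.3% of the genes listed at 4 hpf and above 70.0% of those listed at 2 hpf, a scale that does not change when a whole table is rescaled. Its difference was -0.68, or -1.35 relative to the all-gene median, and 15.8% of the genes compared had a lower difference. The level of ndr1 was thus close to the middle of the 4 hpf table, whose median gene had 0.754 RPKM.

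The gene gdf3 (ENSDARG00000037995) encodes Vg1, the TGF-beta ligand stored in the egg that pairs with the Nodal ligands. Its level was 14.6 RPKM in the 4 hpf table and 10.04 RPKM in the 2 hpf table. That put it above 87.2% and 90.4% of the listed genes at 4 and 2 hpf. Its difference of 0.50 was -0.16 relative to the all-gene median, so gdf3 lay near that median. Relative to the median of genes that reached 5 RPKM in either table, which was 1.02, it was -0.52. The sign of the measured difference turned under other scalings, to -0.43 with an equal median ratio, -0.36 with quantile normalization and -0.25 on the sum without the 100 highest genes. RPKM is scaled for length, so both ligands can be compared within a table: gdf3 was 13.9 times as abundant as ndr1 at 4 hpf and 4.36 times at 2 hpf. For ndr2, which encodes the ligand Cyclops, the reference table of symbols gives ENSDARG00000101279, an ID found in neither table, and ndr2 was not analysed here. The highest ID in the tables is ENSDARG00000098052, and 7262 of the 29201 IDs that the reference table names are numbered above it.

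Both inhibitors had lower levels at 4 hpf, and both stood above the median gene at 2 hpf. Lefty proteins block Nodal signalling at the level of the receptors and are themselves induced by it. The gene lft1 (ENSDARG00000019920) had 0.188 RPKM in the 4 hpf table and 3.03 RPKM in the 2 hpf table, a ratio of 0.0621. Its place among the listed genes was above 29.7% of them at 4 hpf and above 74.5% at 2 hpf. With a difference of -1.76, or -2.42 relative to the all-gene median, it was the most extreme of the 6 genes, and 3.64% of the genes compared had a lower difference. The gene lft2 (ENSDARG00000044059) had 0.707 RPKM in the 4 hpf table and 1.87 RPKM in the 2 hpf table. It stood above 49.1% of the listed genes at 4 hpf and above 66.6% at 2 hpf, with a difference of -0.75, or -1.41 relative to the median.

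The pair of inhibitors also changed places. At 4 hpf lft1 stood at 0.266 times the level of lft2, and at 2 hpf at 1.62 times. Both genes passed the minimum of 1 RPKM through the 2 hpf table alone, and at such levels few reads may stand behind a value. How many reads that was is unknown, and no counting interval could be given. The log2(RPKM + 1) scale also understates differences of genes this low: the difference of lft1 was -3.44 with a pseudocount of 0.1 and -0.63, short of 2-fold, with a pseudocount of 5. Of the 6324 genes whose higher value was 1 to under 5 RPKM, a range set after seeing the values, 13.4% were at least 2-fold lower at 4 hpf. Measured from the all-gene median, 30.0% of them lay 2-fold or more below and 0.411% as far above. All 3 pathway genes in that range (ndr1, lft1 and lft2) lay 2-fold or more below.

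Among the transducers, smad2 was more abundant than foxh1 in both tables. Foxh1 is the forkhead partner through which Smad2 complexes find Nodal target genes, and its mRNA is supplied by the mother. The gene foxh1 (ENSDARG00000055630) had 13.4 RPKM in the 4 hpf table and 12.9 RPKM in the 2 hpf table. These levels lay above 86.3% and 92.5% of the listed genes at 4 and 2 hpf. The difference of 0.06 was -0.61 relative to the all-gene median, so a nearly equal RPKM in both tables meant a lower place among the genes at 4 hpf. That near-equality depends on the scaling, since the difference was -0.87 with an equal median ratio, -0.82 with quantile normalization and -0.69 on the sum without the 100 highest genes.

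Smad2, the receptor-activated signal transducer, had the highest level of the 6 genes in both tables. Its gene (listed as SMAD2, ENSDARG00000006389) had 53.7 RPKM in the 4 hpf table and 18.9 RPKM in the 2 hpf table, a ratio of 2.84. It ranked 761 of 24904 listed genes at 4 hpf and 1247 of 25804 at 2 hpf. The difference of 1.46 was 0.80 relative to the all-gene median, with 86.0% of the genes compared lower, so the excess over the bulk of the table was under 2-fold. Among genes that reached 5 RPKM in at least one table, as smad2, gdf3 and foxh1 did, 51.2% were 2-fold or more higher at 4 hpf. Relative to the median of these genes, 1.02, smad2 was at 0.44, gdf3 at -0.52 and foxh1 at -0.97. With the tables scaled to an equal median ratio the difference of smad2 was 0.45, and with quantile normalization it was 0.52. On the sum without the 100 highest genes it was 0.66, and all these differences of smad2 were short of 2-fold. Within the tables, smad2 was 3.99 times as abundant as foxh1 at 4 hpf and 1.47 times at 2 hpf.

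No ID carries the symbol smad4a, the common Smad that Smad2 binds. The reference table gives the symbol SMAD4 to 2 IDs in the tables without saying which zebrafish copy each is, so neither is counted among the 6. ENSDARG00000075226 had 5.64 RPKM in the 4 hpf table and 4.78 RPKM in the 2 hpf table, and ENSDARG00000012649 had 2.01 and 1.74 RPKM in these tables. Their differences were 0.20 and 0.14, or -0.46 and -0.52 relative to the all-gene median. Reads shared by such copies, or by lft1 and lft2, may have been divided or dropped in the authors' counting.

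**Figure D2:**
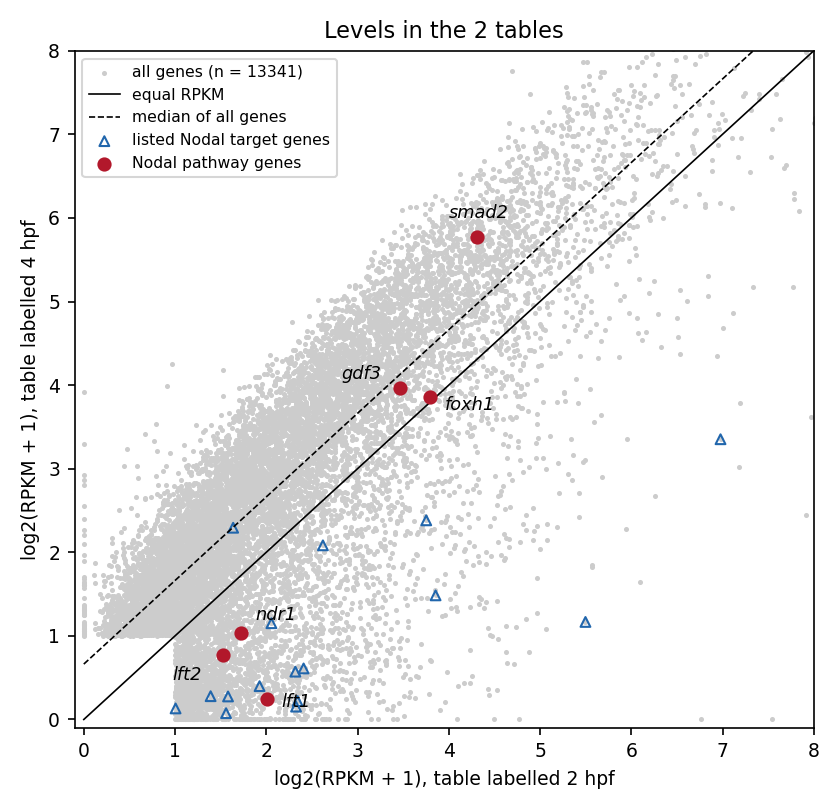
Levels as log2(RPKM + 1) at 4 hpf (vertical axis) and at 2 hpf (horizontal axis), as the tables are labelled, for 13341 genes (grey), the 6 Nodal pathway genes (red) and the listed Nodal target genes that were compared (blue triangles); the solid line marks equal RPKM, the dashed line the median difference of 0.66, and both axes end at 8. The gene smad2 lies above the dashed line, gdf3 just below it, and ndr1, lft1 and lft2 lie below the solid line among the target genes; the empty corner at the lower left is the 1 RPKM minimum.

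The wider pathway was read from lists ordered by role. They were chosen with earlier results of these data known, and copies that the reference table names alike were matched without their copy letter. Extracellular and membrane parts came first. None of the 4 IDs of other Nodal and activin ligands (spaw, INHBB and both named INHBA) reached 1 RPKM, so among the measured ligands gdf3 and ndr1 alone were above that level. Of 5 receptor IDs with at least 1 RPKM, 1 was at least 2-fold higher at 4 hpf on the log2(RPKM + 1) scale, against 33.0% of all genes. None was 2-fold lower, against 10.9%. All 5 reached 5 RPKM in at least one table, and 51.2% of genes of that level were 2-fold higher. As plain RPKM ratios, 3 of the 5 exceeded 2. ACVR2A, a type II activin receptor, was the one called, at 11.7 RPKM in the 4 hpf table and 3.23 RPKM in the 2 hpf table. ACVR2B, of the same type, had 5.73 and 2.58 RPKM at 4 and 2 hpf, a ratio of 2.22. The type I receptor ACVR1B had 7.70 and 5.29 RPKM at 4 and 2 hpf for ENSDARG00000018968, and 5.48 and 2.54 RPKM for ENSDARG00000052142. The co-receptor gene tdgf1 went the other way, at 9.57 RPKM in the 4 hpf table and 14.7 RPKM in the 2 hpf table, a difference of -0.57, or -1.23 relative to the all-gene median.

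Convertases cut the precursors of TGF-beta ligands into their active form. Of 3 such IDs with at least 1 RPKM, the 2 named FURIN were at least 2-fold higher at 4 hpf, against 33.0% of all genes. ENSDARG00000062909 had 9.08 RPKM in the 4 hpf table and 3.22 RPKM in the 2 hpf table. ENSDARG00000070971, which reached 1 RPKM through the 4 hpf table alone, had 3.08 and 0.864 RPKM in these tables. Relative to the all-gene median, these differences were 0.59 and 0.47, within 2-fold. PCSK5 had 3.59 and 2.90 RPKM at 4 and 2 hpf.

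Of 8 IDs of other transducers and co-factors, both SMAD4 IDs among them, 7 lay within 2-fold of the all-gene median, as did 70.9% of all genes. The chromatin remodelling ATPase gene SMARCA4 had 73.2 RPKM in the 4 hpf table and 37.4 RPKM in the 2 hpf table, and the acetyltransferase gene EP300 had 13.3 and 8.08 RPKM. EOMES, a maternal T-box partner of Smad2, had 7.85 RPKM at 4 hpf and 5.23 RPKM at 2 hpf. The exception was mixl1, a homeobox gene that is itself induced by Nodal, at 0.486 RPKM in the 4 hpf table and 3.99 RPKM in the 2 hpf table. It lies under the level set for naming and was chosen after its value was seen. IDs named SMAD3, a relative of Smad2, were scarce: ENSDARG00000036096 had 2.12 and 1.02 RPKM at 4 and 2 hpf, below smad2 in both tables; this ID too was named after its values were seen.

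Genes that induce the ligands upstream gave 3 higher and 5 lower values at 4 hpf among 8, where 27.0% of all genes compared were lower. None differed by 2-fold on the log2(RPKM + 1) scale, on which the called differences of all lists are counted. Of all genes, 33.0% were called higher and 10.9% lower. As plain RPKM ratios, ctnnb2 (2.29) and mxtx2 (0.498) passed 2-fold. Measured from the all-gene median, 2 of the 8 (nanog and mxtx2) lay 2-fold or more below, against 21.2% of all genes. None lay as far above, against 7.85%. The highest levels among the 8 were those of pou5f3, nanog and sox19b. In the 4 and 2 hpf tables, pou5f3 had 59.4 and 62.1 RPKM, nanog 43.6 and 61.9 RPKM, and sox19b 24.9 and 15.4 RPKM. The homeobox gene mxtx2 of the yolk syncytial layer, which turns on ndr2, had 1.84 RPKM in the 4 hpf table and 3.70 RPKM in the 2 hpf table and is named after its values were seen. CTNNB1, which encodes beta-catenin, had 5.12 and 6.62 RPKM at 4 and 2 hpf, and its copy ctnnb2 had 5.56 and 2.43 RPKM. All 5 listed regulators of messenger RNA had higher values at 4 hpf, as did 73.0% of all genes compared. From the all-gene median, 2 of the 5 lay 2-fold or more above, against 7.85% of all genes, and none as far below, against 21.2%. All 5 exceeded 5 RPKM in both tables, so these shares are not those of genes at their level. As measured, 2 of the 5 were at least 2-fold higher at 4 hpf, beside 51.2% of genes whose higher value was at least 5 RPKM. For genes of that level, the shares 2-fold above and below the all-gene median were not computed. YBX1, whose product binds ndr1 RNA and holds back its translation, had 129 RPKM in the 4 hpf table and 102 RPKM in the 2 hpf table. DICER1, the enzyme that makes microRNAs, had 33.6 and 9.91 RPKM at 4 and 2 hpf, and IGF2BP3, an RNA-binding protein gene, had 107 and 31.8 RPKM.

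Negative regulators gave values in both directions as measured. Of 13 IDs that were compared, 2 were at least 2-fold higher at 4 hpf on the log2(RPKM + 1) scale, against 33.0% of all genes, and 4 at least 2-fold lower, against 10.9%. As plain RPKM ratios, SKIL (2.04) would join the higher and skilb (0.163) the lower IDs, the last of which is named after its values were seen. From the all-gene median, 6 of the 13 lay 2-fold or more below, against 21.2% of all genes. None lay as far above, against 7.85%. Of the 13, 4 reached 1 RPKM through the 2 hpf table alone, and all 4 are among those 6. SMURF1, a ubiquitin ligase that acts on Smads, had 19.9 RPKM in the 4 hpf table and 7.11 RPKM in the 2 hpf table. PPM1A, a phosphatase gene of phosphorylated Smads, had 6.66 and 2.49 RPKM at 4 and 2 hpf for ENSDARG00000043250. Its other ID, ENSDARG00000032155, had 12.6 and 7.33 RPKM, a difference of 0.70 that was not called. On the lower side were dact2, which promotes turnover of Nodal receptors, at 0.972 RPKM in the 4 hpf table and 6.44 RPKM in the 2 hpf table, and the pseudoreceptor gene BAMBI at 1.16 and 6.72 RPKM. SMAD7, an inhibitory Smad induced by the pathway, had 0.664 and 4.82 RPKM at 4 and 2 hpf. SKI, a Smad co-repressor gene, had 0.354 and 2.15 RPKM, and both are named after their values were seen. DRAP1, which in mouse restrains Foxh1, was nearly level at 24.9 RPKM in the 4 hpf table and 27.1 RPKM in the 2 hpf table.

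Target genes of Nodal signals lay on the side of the Lefty genes. Of 21 target IDs in the tables, 20 had a lower RPKM at 4 hpf, against 45.6% of all listed genes. Of the 16 that were compared, 9 reached 1 RPKM through the 2 hpf table alone. Measured from the all-gene median, 15 of the 16 lay 2-fold or more below, against 21.2% of all genes. The notochord homeobox gene noto had 9.21 RPKM in the 4 hpf table and 125 RPKM in the 2 hpf table, and the mesodermal T-box gene tbx16 had 1.25 and 44.2 RPKM. The BMP antagonist gene chrd had 1.80 RPKM at 4 hpf and 13.5 RPKM at 2 hpf, and the chemokine receptor gene CXCR4 (ENSDARG00000041959) had 4.21 and 12.5 RPKM. The exception was the LIM homeobox gene lhx1a, at 3.90 RPKM in the 4 hpf table and 2.11 RPKM in the 2 hpf table, named as the single higher ID. The 6 zygotic genes of the age check are all in this list, so both readings rest on the same values.

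**Figure D3:**
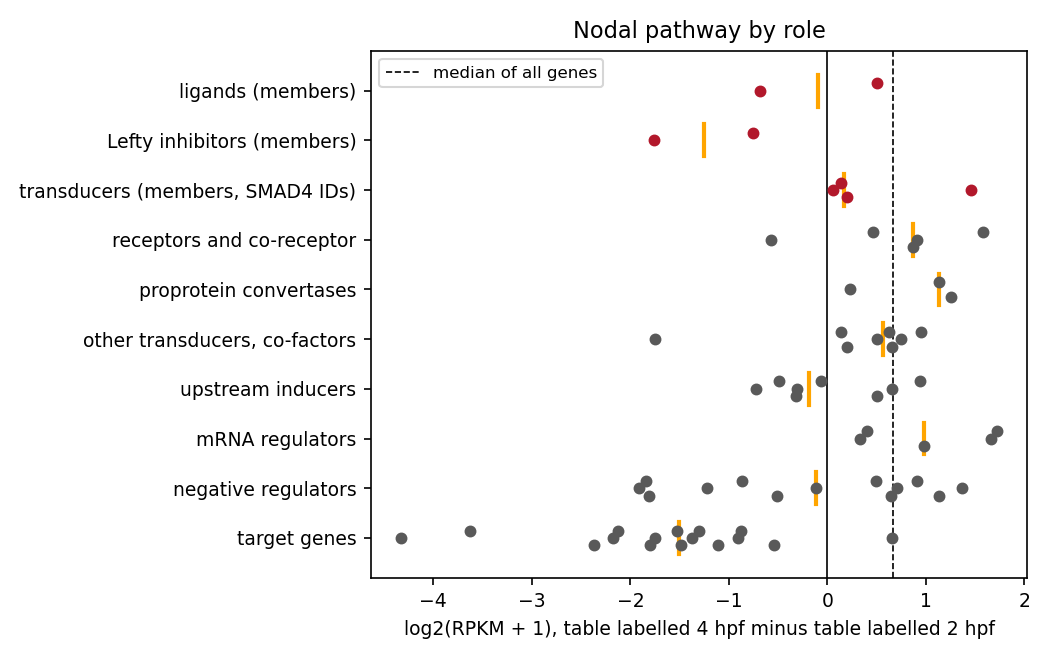
Log2(RPKM + 1) at 4 hpf minus that at 2 hpf, as the tables are labelled, for each compared ID of the pathway, grouped by role; red points are the Nodal pathway genes with both SMAD4 IDs, grey points the other lists, orange bars the median of each row, and the dashed line the median of all genes at 0.66. Lefty genes and target genes lie to the left of 0, apart from lhx1a, while receptors, convertases and mRNA regulators lie mostly to the right.

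The genes with the most similar levels were sought by the distance between the log2(RPKM + 1) values of both tables. The nearest gene was DKK3 for lft1, RGS4 for lft2, pmela for ndr1, kif20ba for gdf3, PAWR for foxh1 and NUS1 for smad2, at distances from 0.0091 to 0.039. With 2 values per gene such likeness is common: between 79 genes (for foxh1) and 231 genes (for lft2) lay within 0.25 of a pathway gene in both tables.

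**Figure D4:**
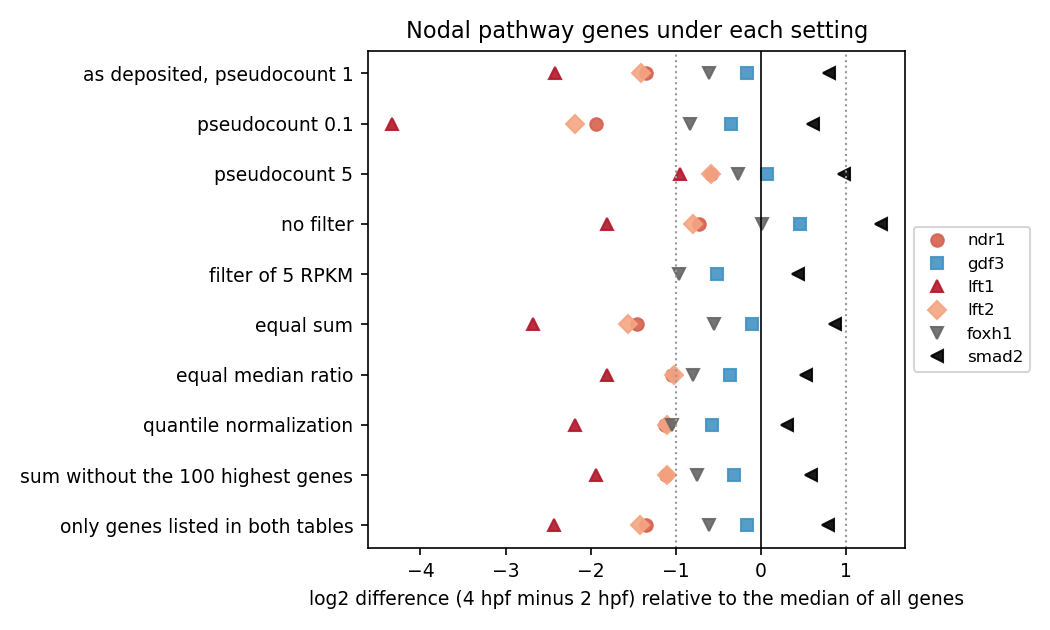
Log2 difference (4 hpf minus 2 hpf) of each Nodal pathway gene relative to the all-gene median, as deposited and under each alternative; dotted lines mark 2-fold. The order lft1 lowest and smad2 highest is the same in every row that holds both. With a pseudocount of 5, ndr1, lft2 and lft1 (-0.95) lie within 2-fold. Without a filter, ndr1 and lft2 lie within 2-fold and smad2 (1.41) lies more than 2-fold above. After quantile normalization foxh1 reaches -1.04, and the 5 RPKM minimum leaves gdf3, foxh1 and smad2 alone.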

How the data were processed

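RNA from anti-FLAG precipitates of embryos at 4 and 2 hpf was measured in 4 samples. The authors deposited 1 table of RPKM per age, without a header; that each value is a mean over replicates is taken from how the tables are named. Build Zv9 and the tools TopHat2 2.1.1, Bowtie, bedtools 2.16.2, MACS2 2.0.10, Trimmomatic 0.36 and cutadapt 1.13 are named per the submitters' processing notes, in roles not given in the sources used here; nor are the annotation, the counting program and the RPKM denominator. Since RPKM shares 1 denominator, features that take more reads lower all others. The 10 highest entries held 62.3% of summed RPKM at 4 hpf and 82.1% at 2 hpf. These are shares of length-scaled values, and the share of reads is unknown.

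A reference table named 20039 of 27205 IDs (73.7%). A gene in 1 table only was taken as 0 in the other. Differences of log2(RPKM + 1) were computed with Python 3.11.15 and pandas 2.3.3 for genes that reached 1 RPKM in one or both tables and called at 2-fold, without a test; the calculation was tested on simulated data. Rescaling was applied to the 4 hpf table, except that quantile normalization changed both tables. The minimum was applied to deposited values. Members and lists were chosen with earlier results of these data known. Genes of the role lists were named from 5 RPKM in either table, or where a list had 5 or fewer measured genes. Alternatives were other pseudocounts, minimums, scalings and thresholds, and ranks over named genes. Values without a test were taken as moved beyond 0.5 (log2), 5 percentile points or, for counts, 1.5 times, tolerances chosen here.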

Additional observations from a re-analysis of the deposited data

How the results depend on the processing

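Leaving out a replicate was not run. No paired analysis was possible because the tables hold means without replicate values. The depth is unknown, so how many reads stand behind any value is too. Over all settings that kept them, ndr1, lft1 and lft2 had a negative difference, and smad2 had a positive one. The differences of gdf3 and foxh1 were each positive in 7 of 10 settings and negative in 3. The 5 RPKM minimum left 3 pathway genes (gdf3, foxh1 and smad2) among 7017 genes in all. Its counts below therefore do not cover ndr1, lft1 and lft2. Against 1 lower pathway gene, 3 were lower with a pseudocount of 0.1, with an equal median ratio and with sums that omit the 100 highest genes, and 0 with a pseudocount of 5, a 5 RPKM minimum or a 4-fold threshold. Against 1 higher, 0 were higher after those 2 scalings, quantile normalization or at 4-fold. Against 3 below the median of all genes, 0 were below with a pseudocount of 5 or the 5 RPKM minimum, and 1 without a filter or at 4-fold; 1 lay above it without a filter, against 0. The median difference of -0.31 became 0.50 over the 3 genes left by the 5 RPKM minimum. Over all 6 genes it was -0.98 after equal median ratio, -0.85 after quantile normalization and -0.86 without the 100 highest genes. Against 4409 higher and 1452 lower genes of all, the numbers were 1907 and 371 (pseudocount 5), 347 and 2533 after equal median ratio, 801 and 2222 without the 100 highest, 291 and 342 at 4-fold, 6628 higher after equal sum, 1369 higher after quantile normalization and 607 lower with the 5 RPKM minimum. Higher genes were 75.2% of those called as deposited and 84.7%, 12.0%, 39.7% and 26.5% after equal sum, equal median ratio, quantile normalization and the sum without the 100 highest. No percentile of the 6 genes moved by over 5 points when ranked among genes with a symbol.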
